A study of Mus musculus with 14 samples.

Results

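The 9 genes described here encode proteins of the smooth muscle contractile apparatus: Tagln, Acta2, Cnn1, Cnn2, Tpm1, Tpm2, Myl9, Actg2 and Cald1. They were chosen by symbol, 9 of 23174 gene rows, because they had stood out in earlier comparisons of differentiating cells with embryonic stem cells (ESCs) in these same data. Their values against ESCs are therefore given as a description, without a test. The question the series addresses is how the zinc finger factor Zfp281 bears on the conversion of mouse ESCs into extraembryonic endoderm (XEN) cells, the stem cells of the yolk sac endoderm lineage.

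Gene expression was measured by polyA RNA-seq in 14 libraries, 1 for each line and stage. ESCs of 4 lines of strain 129S1/SVImJ were followed: WT3 (Zfp281 wild type), the Zfp281 knockouts KO3.34 and KO2.6, and Rescue3.34, which is KO3.34 with Zfp281 put back. WT3 and Rescue3.34 are together called Zfp281-present below. Each line was sampled as ESCs on gelatin with leukemia inhibitory factor and then at 2 stages of chemical induction. Stage cXENp1 followed 48 h in XEN medium with 10 ng/mL of activin A plus 0.01 µM of retinoic acid, on gelatin and without feeder cells. Stage cXENp3 was reached after a passage on mouse fibroblast feeders and a return to gelatin. The established wild-type lines XENB1 (strain 129S1) and XEN5 (strain 129S1/SVImJ) were kept without feeders in medium conditioned by fibroblasts. Every group thus rests on single cultures of named lines, and the spread below is between lines.

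In smooth muscle, alpha and gamma actin filaments slide against myosin, and tropomyosin, caldesmon and calponin on the filament set how readily myosin engages. Serum response factor (SRF) drives many of these genes through a DNA element called the CArG box, together with myocardin-family coactivators that respond to the actin cytoskeleton and to TGF-beta and activin signals. Several of the genes are also active outside muscle, in fibroblasts, myofibroblasts and spread epithelial cells, so that they mark a contractile program and not a cell type on their own.

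The promoters of 3 members are shown because they hold a CArG or CArG-like box. The RefSeq table (build GRCm38.p6) held windows from 250 bases before to 50 after the start site for 7 of the 9 members, 8 windows in all. Printed are the 250 bases before the start, 5′ to 3′ on the gene's strand, at chr19:34255374-34255623 (minus strand) for Acta2, chr2:156775214-156775463 (plus strand) for Myl9 and chr10:79988350-79988599 (plus strand) for Cnn2. Capitals mark matches to the CArG box, to a CArG-like box (at most 1 of its 6 central bases other than A or T) and, in Acta2, to the MCAT core read from the other strand.
Acta2: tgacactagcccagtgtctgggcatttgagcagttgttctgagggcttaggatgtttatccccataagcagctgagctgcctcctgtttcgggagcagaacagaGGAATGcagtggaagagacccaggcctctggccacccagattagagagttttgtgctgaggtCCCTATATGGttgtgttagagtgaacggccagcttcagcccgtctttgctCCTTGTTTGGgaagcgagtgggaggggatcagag
Myl9: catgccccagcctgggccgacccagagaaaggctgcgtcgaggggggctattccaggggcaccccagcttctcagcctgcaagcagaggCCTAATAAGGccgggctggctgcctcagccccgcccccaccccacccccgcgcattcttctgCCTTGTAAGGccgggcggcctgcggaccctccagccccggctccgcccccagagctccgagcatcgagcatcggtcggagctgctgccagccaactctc
Cnn2: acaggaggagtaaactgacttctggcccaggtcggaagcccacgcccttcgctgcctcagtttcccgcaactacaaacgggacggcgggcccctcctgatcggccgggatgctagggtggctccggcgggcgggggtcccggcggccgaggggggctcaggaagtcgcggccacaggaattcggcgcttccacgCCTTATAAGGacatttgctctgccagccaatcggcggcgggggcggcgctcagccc
Searched on both strands, a CArG box stood in Myl9 and Cnn2 among the 7 members and in 1.63% of all 32851 windows. Counting CArG-like boxes, which include every CArG box, the match extended to Acta2, with a background of 9.98% of windows. The MCAT core CATTCC stood in Acta2, Tpm1 and Cald1, and in 14.7% of all windows. These matches describe letters in a window and say nothing about binding.

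Values are FPKM (fragments scaled to transcript length and to mapped fragments), which allow levels to be compared between genes. Differences are on the scale log2(FPKM + 1), which understates changes of low genes. Across the libraries FPKM summed to between 424406 and 718138, and the read depth is unknown. Zfp281 itself was 25.1 to 38.6 FPKM in the 6 libraries of WT3 or Rescue3.34, 1.29 to 3.96 in KO3.34 and 0 to 0.559 in KO2.6, which fits every label. The XEN lines had 10.6 and 12.5 FPKM. Some genes used by every cell are listed at exactly 0 in this table, so a 0 is reported as listed and no fold is taken against it.

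In undifferentiated ESCs the members fell into an expressed and a near-silent set. Tpm1, a tropomyosin, was the highest, at 36.9 to 40.3 FPKM over the 4 lines. Cnn2, the more widely expressed calponin, was 14.8 to 17.0 FPKM, and Cald1 (caldesmon) 7.34 to 11.3. Tpm2, the second tropomyosin, was 1.74 to 4.49 FPKM. The ranges of these 4 genes did not overlap, which fixes their order in ESCs.

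The other 5 members were below 1 FPKM in every ESC library. Tagln (transgelin, an actin cross-linking protein) lay between 0.0600 and 0.440, Cnn1 (calponin 1) between 0.0632 and 0.532, and Myl9 (a regulatory light chain of myosin) between 0.0535 and 0.297. Acta2 (smooth muscle alpha actin) and Actg2 (smooth muscle gamma actin) were listed at exactly 0 in all 4 ESC libraries and above 0 in the other 10. Of the 6147 rows listed at 0 in the 4 ESC libraries, 46 were above 0 in all 10 others, and 7 of those reached 10 FPKM in at least 1 library.

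KO and Zfp281-present ESCs did not differ detectably in these genes. Of the 9 members 0 were called in that comparison, in which limma called 1.97% of 13191 genes (adjusted p under 0.05, as in every comparison below), and 0 had an unadjusted p under 0.05. The largest difference was that of Tpm2, a log2 difference of -0.71 (SE 0.49, adjusted p = 0.445 in limma). Tpm2 had 1.74 FPKM in KO3.34, 2.55 in KO2.6, 3.73 in WT3 and 4.49 in Rescue3.34. The SE of each gene is pooled over all 6 groups of 2 libraries, so it includes the split between WT3 and Rescue3.34 at cXENp3. A difference judged by the spread in ESCs alone was not tested.

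At cXENp1 all 9 members were higher than in ESCs in each of the 4 lines. For Acta2 and Actg2 the ESC value was a listed 0, and Actg2 rose only to at most 0.664 FPKM. The median difference over members was 2.80 to 3.77 per line on the log2 scale, beside a median of -0.03 to 0.10 over all genes. Among all genes 29.6% were higher in all 4 lines, and limma called 28.5% (14.7% higher). The largest change was that of Tagln, from at most 0.440 FPKM to 172 FPKM (WT3), 150.3 (Rescue3.34), 122 (KO2.6) and 219 (KO3.34). No cXENp1 library came near the ESC range.

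Myl9 followed the same course, reaching 45.0 FPKM in Rescue3.34, 49.7 in WT3, 47.1 in KO2.6 and 100.4 in KO3.34. Tpm1 reached 398, 369, 468 and 778 FPKM in the same order of lines, 9.15 to 20.7 times its own ESC level, and made up 45.9% to 55.3% of the summed FPKM of the 9 genes. In both genes KO3.34 was the highest line.

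The 2 smooth muscle actins differed in level at this stage. Acta2 at cXENp1 was 6.46 FPKM in Rescue3.34, 17.6 in WT3, 20.9 in KO2.6 and 24.6 in KO3.34. Actg2 stayed below 1 FPKM in all 4, at 0.0417, 0.164, 0.664 and 0.305 in that order. Cald1 (69.2 to 91.9 FPKM), Cnn2 (79.6 to 167), Cnn1 (7.75 to 14.9) and Tpm2 (11.3 to 14.8) were all above their ESC ranges.

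Ordered by median level at cXENp1, the genes ran Tpm1 (433 FPKM), Tagln (161), Cnn2 (124), Cald1 (83.7), Myl9 (48.4), Acta2 (19.2), Tpm2 (13.6), Cnn1 (13.3) and Actg2 (0.234). The ranges of neighbours overlapped from Tagln to Myl9 and again from Acta2 to Cnn1. Tpm1 stood above all others, and Actg2 below all others, without overlap.

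**Figure D1:**
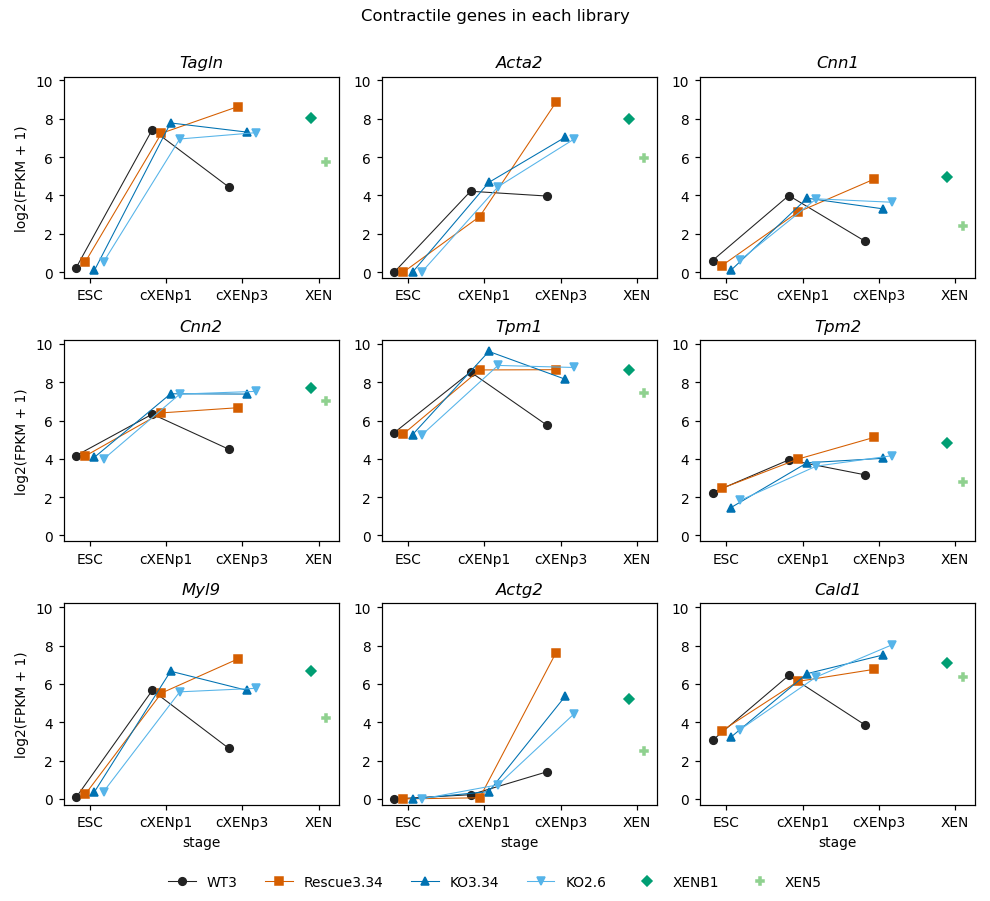
Level of each of the 9 genes as log2(FPKM + 1) in every library, by stage, with 1 point per library and lines joining the libraries of 1 line. All 9 genes are higher at cXENp1 than in ESCs in each line, Actg2 by the least, and at cXENp3 WT3 (black) is the lowest library of its stage for every gene.

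Regulators and relatives of the contractile genes changed at the same step. Of 16 SRF and myocardin regulators 6 were called higher at cXENp1 than in ESCs and 1 lower, where 14.7% of all genes were called higher. Their median log2 difference was 0.61 beside 0 for all genes. Fhl2, a LIM-domain cofactor of SRF, rose by 3.42 (higher in 4 of 4 lines) and Tgfb1i1, a TGF-beta-induced LIM protein, by 3.36. Fhl2 and Tgfb1i1 were below 1 FPKM in every ESC library and so passed the filter on low values through the later stages. Their own tests are therefore not given. Fhl1 and Csrp1, further LIM-domain proteins, rose by 2.23 and 1.79. The coactivator gene Myocd stayed below 1 FPKM in all 4 lines at this stage.

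Of 14 genes that mark differentiated smooth muscle 10 passed the filter on low values (1 FPKM in at least 2 libraries). Of these 2 were called, both higher, where 14.7% of all genes were called higher: Lmod1, an actin filament nucleator (1.95, SE 0.52), and Synpo2, an actin-bundling protein (1.27, SE 0.28). Lmod1 and Synpo2 were below 1 FPKM in every ESC library and passed the filter through the later stages. Myh11, the smooth muscle myosin heavy chain, did not exceed 0.468 FPKM in any cXENp1 library. Among 12 other genes of the members' protein families, non-muscle and striated muscle forms, 5 were called higher and 2 lower, led by Acta1 (skeletal alpha actin, 3.84, SE 0.53) and Tpm4 (2.25, SE 0.43). Acta1 reached 14.9 to 37.3 FPKM at cXENp1. Of 16 markers of striated muscle 8 passed the filter, with 2 called higher, led by the cardiac factor gene Nkx2-5 (2.12, SE 0.36), and 2 lower. Nkx2-5, too, was below 1 FPKM in every ESC library.

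Genes of the wider cytoskeleton and of TGF-beta and activin signalling were also called at cXENp1, where 28.5% of all genes were called (14.7% higher). Of 27 actomyosin and adhesion genes 13 were called higher and 0 lower, with Rhob, a small GTPase (2.98, SE 0.36), and the focal adhesion protein gene Zyx (2.58, SE 0.48) in front. Of 25 TGF-beta and activin genes 11 were called higher and 3 lower. Cyr61, Thbs1 and Ctgf, matricellular genes induced by TGF-beta, rose by 4.63, 4.23 and 3.04, while Inhbb, which encodes the activin beta B subunit, fell by 5.14.

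At cXENp3 the 4 lines parted. Summed over the 9 genes, WT3 had 141 FPKM, KO3.34 had 1032, KO2.6 had 1260.3 and Rescue3.34 had 1881, while the 4 sums at cXENp1 had been 774 to 1407 and those in ESCs 63.9 to 71.2. Each member was still higher than in its own ESCs in all 4 lines, where 18.9% of all genes were, and limma called 9.35% of genes between those stages. In WT3 that excess was small for some genes: Cnn2 was 21.7 FPKM at cXENp3 against 17.0 in ESCs, and Tpm1 53.2 against 40.3.

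From cXENp1 to cXENp3, 8 of 9 members were lower in WT3, with Actg2 as the exception, and 9 of 9 were higher in Rescue3.34. The KO lines were mixed, with 4 of the 9 higher in KO3.34 and 7 in KO2.6. The median log2 difference over members was -2.38 for WT3, -0.01 for KO3.34, 0.33 for KO2.6 and 1.39 for Rescue3.34, beside medians within 0.0333 of 0 over all genes. WT3 and Rescue3.34 thus lay on opposite sides of both KO lines in this step for every member except Cald1.

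Tagln and Myl9 show how far the lines parted. Tagln went from 172 to 20.8 FPKM in WT3 and from 150.3 to 395 in Rescue3.34, while KO3.34 (219 to 157) and KO2.6 (122 to 154) changed less. Myl9 went from 49.7 to 5.27 FPKM in WT3 and from 45.0 to 157 in Rescue3.34.

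The actins were the members that gained most after cXENp1. Acta2 at cXENp3 was 14.6 FPKM in WT3, 122 in KO2.6, 130.0 in KO3.34 and 462 in Rescue3.34, and had become the highest of the 9 genes in Rescue3.34. Actg2 was 1.66, 20.8, 39.8 and 196 FPKM in the same order. Only WT3 failed to gain Acta2, with 14.6 against 17.6 FPKM.

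Averaged over lines and tested with line as a block, the step from cXENp1 to cXENp3 gave 1 call among the 9, where limma called 7.45% of genes (2.47% higher). The call was that of Actg2, which rose by 4.36, in 4 of 4 lines. It reached 1 FPKM only at cXENp3 within the course and so passed the filter through the stage where it was high. Its own test is therefore not given, and the call is no support for a change. Acta2 had a difference of 2.64 (SE 0.78, adjusted p = 0.0745), higher in 3 of 4 lines. The same step brought calls in the listed genes around the members, among them Acta1, which fell by 2.19 (SE 0.53), and Inhba, which encodes the activin beta A subunit and rose by 3.35 (SE 0.63). Without the WT3 library of cXENp3 the count of members was 3, all higher, in a fit that called 4.05% of genes higher. Without line KO3.34 or line Rescue3.34 it was 0, in fits that called 0.957% and 2.52% of genes.

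**Figure D2:**
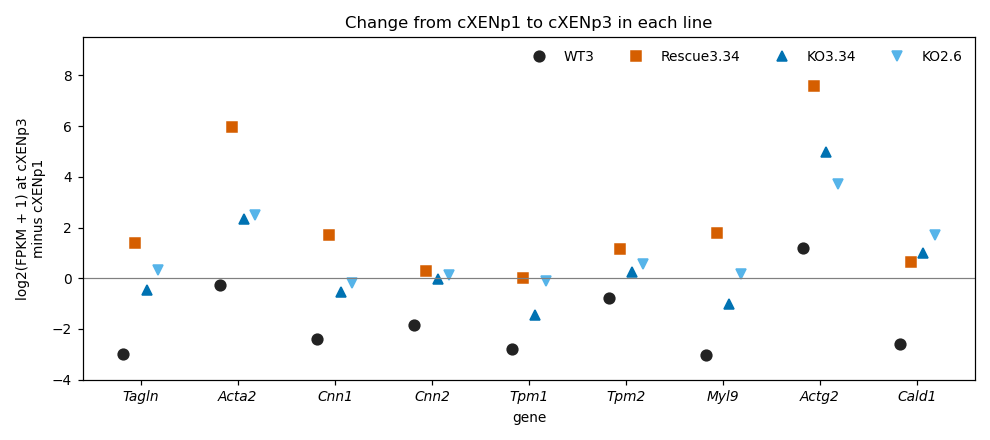
Difference in log2(FPKM + 1) between cXENp3 and cXENp1 for each gene, with 1 point per line and no error bar because each line gave 1 library per stage. WT3 lies below 0 for every gene except Actg2, Rescue3.34 lies above 0 for every gene, and the KO lines lie between them except in Cald1.

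Both knockouts had similar levels at cXENp3. Of the 9 genes 0 differed by 2-fold or more in FPKM + 1 between the KO lines (4.8% of 11910 genes were that much higher in KO3.34 and 5.46% lower), the ratio of FPKM in KO3.34 to KO2.6 running from 0.654 (Tpm1) to 1.91 (Actg2). Against WT3, the KO3.34 level was 1.92-fold (Tpm2) to 24.0-fold (Actg2) higher and the KO2.6 level 2.13-fold (Tpm2) to 19.6-fold (Cald1) higher. These are single libraries, with no replicate check.

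Rescue3.34 exceeded WT3 at cXENp3 in all 9 genes by at least 2-fold in FPKM + 1, as did 6.16% of 11942 genes. The ratio ran from 4.24 (Tpm2) and 4.63 (Cnn2) to 31.6 (Acta2) and 118 (Actg2). At cXENp1 the same comparison of lines had 0 members 2-fold higher (0.816% of genes) and 1 lower, Acta2 (2.06% of genes). In ESCs it had 0 higher and 0 lower (0.494% and 0.407% of genes).

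Rescue3.34 also differed from the KO lines in which genes led. Acta2, Actg2, Tagln, Cnn1 and Myl9 were 2.42 to 9.44 times the level of either KO line at cXENp3. Cnn2, at 100.6 FPKM, and Cald1, at 108, were instead below their levels in KO3.34 (165 and 182) and KO2.6 (183 and 264). Tpm1, at 401 FPKM, lay between KO3.34 (284) and KO2.6 (435).

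The comparison of both KO lines with both Zfp281-present lines at cXENp3 therefore averaged over unlike libraries. Of the 9 members 2 were called, both higher in KO, where limma called 41.9% of genes (22.9% higher and 19% lower). That count is near the share of all genes called higher, so it does not set the members apart. Cald1 was higher by 2.47 (SE 0.70, adjusted p = 0.0183), with both KO libraries above both Zfp281-present ones (13.5 and 108 FPKM). Cnn2 was higher by 1.86 (SE 0.51, adjusted p = 0.0158), again without overlap, the Zfp281-present libraries having 21.7 and 100.6 FPKM.

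The remaining 7 members had KO values between those of WT3 and Rescue3.34, except for Tpm1 in KO2.6. Their log2 differences ran from -0.05 (Tpm2, SE 0.49, adjusted p = 0.949) to 1.26 (Tpm1, SE 0.70, adjusted p = 0.174). The SE of Actg2 was 1.42, so that a difference of several-fold either way was not detectable for it.

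Each Zfp281-present library decided the outcome, as alternatives added after the data had been seen showed. Without the Rescue3.34 library of cXENp3, 9 of 9 members were called higher in KO, from 0.93 (Tpm2) to 3.93 (Cald1), where 20.6% of all genes were called higher. Without the WT3 library of cXENp3, 7 were called, 1 higher (Cnn2, 0.78) and 6 lower, among them Actg2 at -2.73, Acta2 at -1.87 and Tagln at -1.34, where 14.7% of all genes were called higher and 7.86% lower. Cald1 was then at 1.02 (adjusted p = 0.0508). In both fits 1 group holds a single library, which is assumed to vary like the others. Without line KO2.6 or line KO3.34 the count was 0, in fits that called 29.4% and 47.9% of genes.

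**Figure D3:**
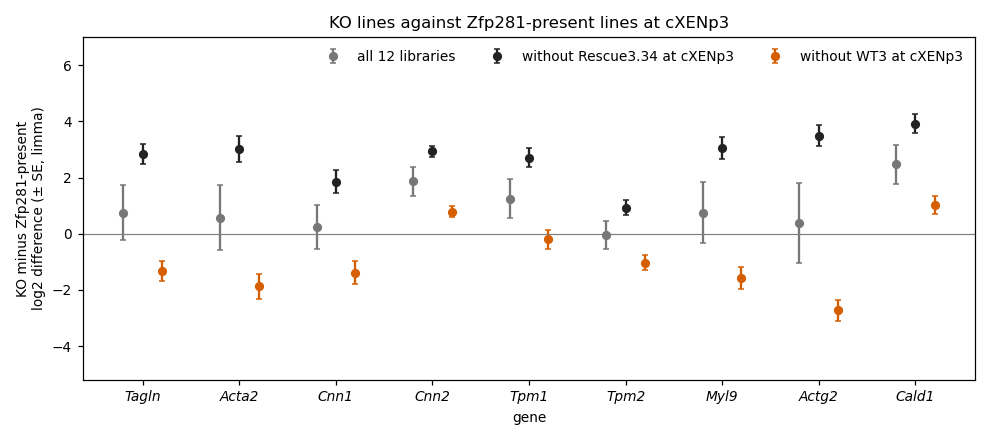
KO minus Zfp281-present log2 difference at cXENp3 for each gene, with its standard error from limma, from all 12 libraries of the course and after leaving out 1 Zfp281-present library. Without Rescue3.34 all 9 genes lie above 0, and without WT3 only Cnn2 and Cald1 do. In those 2 fits the Zfp281-present group at cXENp3 holds a single library.

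At cXENp1 the KO and Zfp281-present lines showed no called difference in any member, in a comparison that called 0.485% of genes, and 0 had an unadjusted p under 0.05. The largest was Cnn2, with a log2 difference of 1.02 (SE 0.51, adjusted p = 0.505 in limma). Cnn2 had 79.6 FPKM in WT3, 83.3 in Rescue3.34, 165 in KO2.6 and 167 in KO3.34. Its SE is pooled over all 6 groups and includes the wide split between WT3 and Rescue3.34 at cXENp3. A difference judged by the spread at cXENp1 alone was therefore not tested. The test of whether the step from cXENp1 to cXENp3 differed between KO and Zfp281-present lines called 0 of 9 members and 11.4% of all genes, and 1 member had an unadjusted p under 0.05. Without the Rescue3.34 library of cXENp3 it called 7 members, all higher in KO, and 9.39% of genes higher. Without the WT3 library it called 2 members, both lower, and 0.882% of genes lower.

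Regulators of the contractile genes were mostly higher in the KO lines at cXENp3. Of the 16 SRF and myocardin regulators 9 were called higher in KO and 0 lower, where 22.9% of all genes were called higher. The 16 include Myocd and Mef2c, which reached 1 FPKM only in the KO libraries of cXENp3. They passed the filter on low values through the libraries where they are high. Their median log2 difference was 1.11 beside 0.01 for all genes. Fhl2 had 1.91 FPKM in WT3, 26.5 in Rescue3.34, 108.5 in KO2.6 and 104 in KO3.34, a log2 difference of 3.58 (SE 0.75, adjusted p = 0.00487). Mef2a, a MADS-box factor like SRF, was higher by 1.58 (SE 0.26), Elk4, which binds DNA beside SRF, by 1.56 (SE 0.40), and Tgfb1i1 by 2.08 (SE 0.76). In 13 of the 16 regulators both KO libraries lay above both Zfp281-present ones, as in 37.2% of all genes and in 2 of the 9 members.

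Cytoskeletal and signalling genes were called between KO and Zfp281-present lines at cXENp3 as well. The same comparison called 41.9% of all genes (22.9% higher and 19% lower). Of 27 actomyosin and adhesion genes 16 were called higher in KO and 0 lower, among them the lamin gene Lmna at 2.44 (SE 0.78). Of 25 TGF-beta and activin genes 10 were called higher and 3 lower, from 7.02 (SE 0.42) for Fst, an activin-binding protein, to -3.69 (SE 0.61) for Tgfbi, a matrix protein. Among the 12 other genes of the members' families 5 were called higher, with Tpm4 at 2.46 (SE 0.52), and 1 lower, the neuronal transgelin gene Tagln3 at -2.48 (SE 0.42).

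Myocd, the cardiac and smooth muscle coactivator of SRF, reached 2.53 FPKM in KO2.6, 1.92 in KO3.34 and at most 0.895 FPKM in any of the other 12 libraries. It is 1 of the 9 regulators called higher, and it passed the filter on low values only through the KO libraries in which it is high, so its own test is not given. The library with the most Acta2 and Actg2, Rescue3.34 at cXENp3, had 0.196 FPKM of Myocd.

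That library also stood apart in some genes of differentiated smooth muscle. At cXENp3 1 of these genes was called higher in KO (Smtn, 0.89, SE 0.24) and 1 lower (Ppp1r14a, -1.70, SE 0.48), where 22.9% and 19% of all genes were. Myh11 was 19.1 FPKM in Rescue3.34 at cXENp3 and at most 2.60 elsewhere. Mylk, the kinase that phosphorylates the myosin light chain, was 6.39 FPKM against at most 1.28 elsewhere, Lmod1 11.3 against at most 6.26, and Pgm5, an adhesion protein, 9.51 against at most 1.88. Of the 14 genes 11 reached 1 FPKM there, against 3 to 9 in the other libraries. Others of the list did not peak in that library. Smtn was 11.8 FPKM in it against 26.3 in KO3.34 at cXENp3, and Ppp1r14a 37.7 against 42.1 in Rescue3.34 ESCs. Itga8 was 1.11 FPKM against 8.54 in Rescue3.34 at cXENp1, and Synpo2, Ppp1r12b and Pln did not peak in it either.

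Markers of other cell types moved with the members at cXENp3. The 16 fibroblast marker genes then summed to 49.2 FPKM for WT3, 426 for KO3.34, 572 for KO2.6 and 1519 for Rescue3.34, against 9.15 to 22.7 in ESCs and 34.1 to 106 at cXENp1. Col1a1 was 17.5 FPKM in WT3, 133 in KO3.34, 168 in KO2.6 and 509 in Rescue3.34, and Col3a1 was 305 FPKM in Rescue3.34 and at most 35.3 elsewhere. Fap was at most 0.333 FPKM in every library. Some markers did not peak in Rescue3.34 at cXENp3. Twist1 was 5.24 FPKM there against 11.9 in KO3.34 and 16.8 in KO2.6. Twist2 and Fbn1 were also below both KO lines, and Lox lay between them. The feeder passage lay between cXENp1 and cXENp3, and the part of feeder RNA in these values was not tested.

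The feeder-free XEN lines had fibroblast marker sums of 718 FPKM (XEN5) and 897 (XENB1), with Col1a1 at 278 and 326. At cXENp1 the 9 members summed to 774 FPKM or more while the fibroblast markers summed to 106 or less. In bulk RNA, fewer cells of a type and less RNA per cell cannot be told apart.

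Pluripotency and XEN markers placed the 4 lines differently again. The 12 pluripotency markers summed to 7981 FPKM in WT3 at cXENp3, within the ESC range of 7684 to 10175, to 4165 in Rescue3.34, 368 in KO2.6 and 1161 in KO3.34. The 14 XEN markers summed to 139 FPKM (WT3), 704 (Rescue3.34), 3009 (KO2.6) and 4138 (KO3.34), although 4 of them are listed at 0 in both KO libraries and both XEN lines. Those 4 gave most of the Rescue3.34 sum: Sparc 475 FPKM, Col4a1 99.4, Col4a2 63.2 and Lama1 4.72. The XEN marker sums thus rest on unlike genes. The library with the highest contractile genes had a lower XEN marker sum than either KO line and many pluripotency transcripts. WT3 combined ESC-like pluripotency levels with the lowest contractile levels of its stage.

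**Figure D4:**
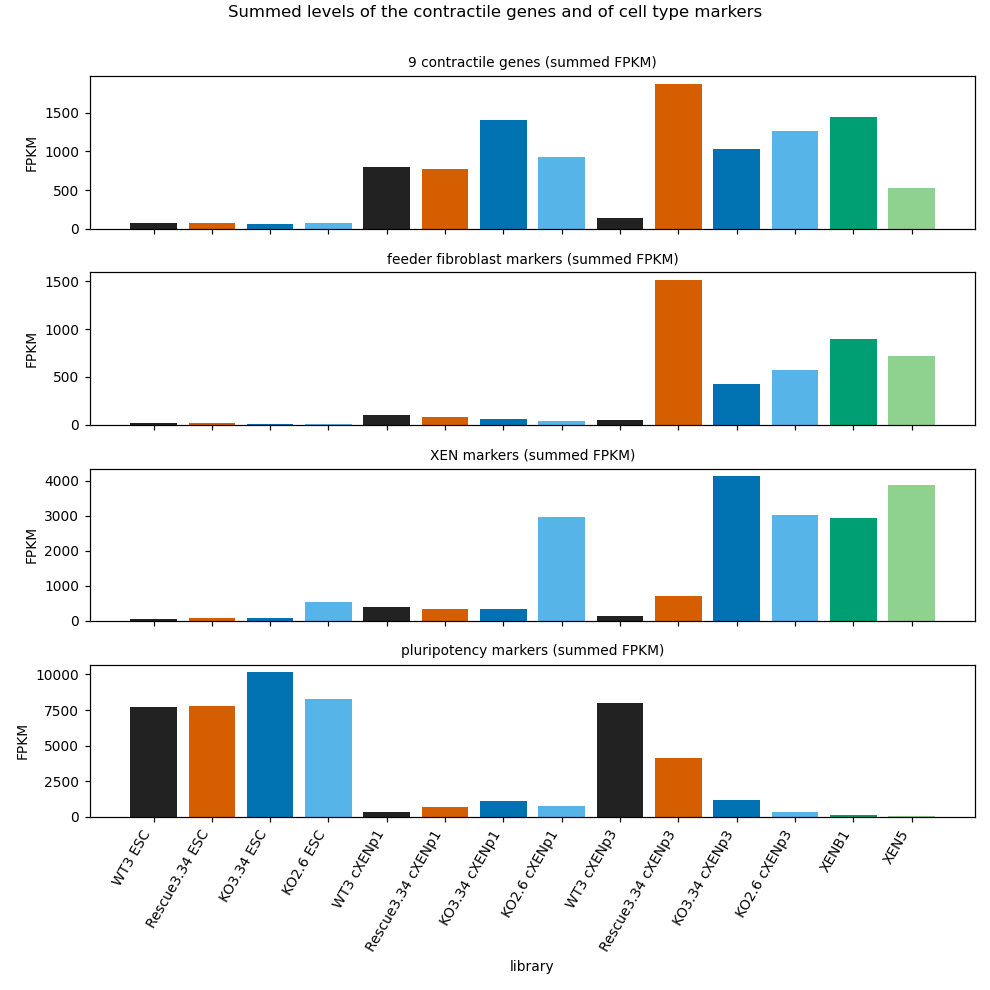
Summed FPKM of the 9 contractile genes and of 3 sets of cell type markers in each of the 14 libraries, bars starting at 0, with 1 library per bar. At cXENp3 the contractile and fibroblast sums are both highest in Rescue3.34 (1881 and 1519 FPKM) and both lowest in WT3 (141 and 49.2 FPKM).

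The established XEN lines expressed all 9 genes, with XENB1 above XEN5 throughout. Their sums were 1447 FPKM in XENB1 and 524 in XEN5. Tagln was 261 and 51.8 FPKM, Acta2 249 and 60.7, Myl9 100.3 and 17.4, and Actg2 35.7 and 4.68. The ratio of XENB1 to XEN5 ran from 1.63 (Cnn2) to 7.64 (Actg2), and 7 members were at least 2-fold higher in FPKM + 1, as were 6.61% of 11598 genes.

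All 9 members were higher in both XEN lines than in every ESC library. This is a description, because the same ESC libraries served in choosing the members, and nothing is read from the 41.9% of 12372 genes that limma called there (22.2% higher). Cald1 was 81.1 and 137 FPKM against 7.34 to 11.3 in ESCs, a log2 difference of 3.37. Cnn2 differed by 3.26, Tpm1 by 2.74 and Tpm2 by 1.81. Tpm2 had the narrowest gap, 5.91 FPKM in XEN5 against 4.49 in the highest ESC library.

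The other 5 passed the filter only through the XEN lines. Tagln differed by 6.54, Myl9 by 5.17 and Cnn1 by 3.28. Acta2 and Actg2, listed at 0 in ESCs, are given by their levels above.

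Regulators and signalling genes, which are no members, were called in the comparison of XEN lines with ESCs. Of 14 SRF and myocardin regulators tested 8 were called higher and 0 lower, where 22.2% of all genes were called higher. Fhl2 and Tgfb1i1, both among them, were at most 0.309 and 0.337 FPKM in ESCs. They passed the filter only through the XEN lines in which they are high, so their own tests are not given. Their log2 differences were 5.77 and 4.71. Of 25 TGF-beta and activin genes 13 were higher and 3 lower, with Ctgf at 8.18 (SE 0.82) and Thbs1 at 7.63 (SE 0.41), and of 5 smooth muscle differentiation genes tested 1 was higher, Smtn at 0.63 (SE 0.21).

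Between the XEN lines and the cXENp1 libraries, the only members called were the smooth muscle actins. Of the 9 members 2 were called in that comparison, both higher in XEN, where 40.5% of genes were called (21.1% higher). The count of members called higher is thus near the share over all genes. Acta2 was higher by 2.90 (SE 1.01, adjusted p = 0.0403), with 60.7 and 249 FPKM against at most 24.6. Actg2 was higher by 3.50, with at least 4.68 FPKM against at most 0.664. It reached 1 FPKM only at cXENp3 and in the XEN lines, and so passed the filter through libraries where it was high. Its own test is therefore not given. Both calls were lost without line XENB1, KO2.6 or KO3.34, and when low genes were not filtered out.

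No member was called between the KO lines at cXENp3 and the XEN lines, where 4.12% of genes were, and 0 had an unadjusted p under 0.05. Log2 differences lay between -0.22 (Cnn1, SE 0.93) and 1.05 (Cald1, SE 0.68, and Actg2, SE 1.47). For all 9 genes except Cald1, whose KO levels of 182 and 264 FPKM exceeded both XEN lines (81.1 and 137), at least 1 KO value lay between those of XEN5 and XENB1. SEs of this size leave differences of 2-fold undetected for most of the genes.

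Within the group, most members rose and fell together over the 14 libraries. The correlation of log2(FPKM + 1) with the mean of the other members was 0.99 for Myl9, 0.98 for Tagln, 0.971 for Cnn1, 0.958 for Tpm1, 0.942 for Cald1, 0.938 for Cnn2, 0.908 for Tpm2 and 0.894 for Acta2. It was 0.621 for Actg2, the gene that stayed low at cXENp1. The closest pair was Tagln and Myl9 (0.992), and Cnn2 and Cald1 correlated at 0.965. These are descriptions over libraries that share lines and stages, and the shared contrast with ESCs contributes to every one of them.

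Of 8286 genes outside the group that reached 10 FPKM in at least 2 libraries and were never listed at 0, the 10 with the profile most like the mean of the 7 members without zeros were Cdkn2b (r = 0.966), Rhob (0.962), Gpr124 (0.962), Parva (0.958), Plau (0.957), Anxa3 (0.956), Anxa1 (0.952), Prkcdbp (0.952), Pdzrn3 (0.949) and Map4k5 (0.948), over 14 libraries. Cdkn2b, a cyclin-dependent kinase inhibitor, was at most 1.93 FPKM in ESCs, 9.63 to 20.3 at cXENp1, and at cXENp3 2.16 for WT3, 20.2 for KO3.34, 30.2 for Rescue3.34 and 43.3 for KO2.6. Parva, which encodes a focal adhesion protein, was 3.16 FPKM in WT3 at cXENp3 and 25.4 to 48.7 in the other 3 lines. Both shared the low WT3 value of the members, which their choice by likeness over these same libraries favours.

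Identity and position bear on how far each row can be trusted. In the table's build (mm9) Acta2 lay on chromosome 19 from 34314826 to 34329863, Actg2 on chromosome 6 from 83462903 to 83486245, Cald1 on chromosome 6 from 34659444 to 34725469, and Myl9 on chromosome 2 from 156601200 to 156607393. Tpm1 lay on chromosome 9 from 66870400 to 66897020, Cnn1 on chromosome 9 from 21903697 to 21913665, Cnn2 on chromosome 10 from 79451345 to 79458145, and Tpm2 on chromosome 4 from 43527584 to 43536260. Tagln shared 1 merged locus, chromosome 9 from 45671774 to 45744141, with Pcsk7 and Rnf214. The coding sequences of Acta2 and Actg2 share no identical run longer than 29 bases, and those of Acta2 and the abundant Actg1 none longer than 56, against reads of 150 bases.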

How the data were processed

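The submitters' processing notes list STAR 2.5.3, Cufflinks 2.1.1 and the build mm9, with no role for either tool. The authors deposited 1 table of 23174 rows with 14 columns taken as FPKM from the values (not whole, never negative, sums that differ). Depth is unknown, so no counting interval was given. Locus starts were shifted by 1 because they count from 0. Coordinates of RefSeq promoters are on GRCm38.p6.

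Values were analysed as log2(FPKM + 1) with limma 3.58.1 in R 4.3.3 (lmFit, eBayes with trend), over genes with at least 1 FPKM in at least 2 fitted libraries, with Benjamini-Hochberg adjustment over all genes of each of 10 comparisons. Stage comparisons over the 12 libraries of the course had line as a block, since libraries of 1 line come from the same cells (correlation of same-line deviations 0.0337 to 0.397). KO comparisons used 6 groups of 2 libraries, XEN comparisons 7 groups or, against ESCs, XEN and ESC alone. Nothing in the labels says more about replication, so p-values measure the spread between these cultures, pooled over all groups of a fit. On simulated data with 200 genes changed by 2 on the log2 scale, the fits recovered 53% (the KO by passage difference) to 87% of them (XEN against cXENp1).

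The members, gene lists and tests were chosen with earlier results of these data known, and no test of a member against ESCs is given. Named genes are the members, up to 4 called genes per list with the largest difference, and the 10 most alike. Myocd, Myh11, Mylk, Pgm5, Lmod1 and the fibroblast markers at cXENp3 were named after their values were seen. Library names carry 2 prefixes. One prefix marks 3 ESC libraries (all but that of KO2.6) and the other the remaining 11, so prefix and stage can be told apart only through line KO2.6, in which the median member difference from ESCs was 3.40 at cXENp1 and 4.43 at cXENp3. Alternatives were another pseudocount (0.1), no filter, a mean of at least 5 FPKM, quantile normalization, no trend, prefix or replicate block, and leaving out each line. Some genes of the fixed lists are included in the counts but are not reported by name here.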

Additional observations from a re-analysis of the deposited data

Results flagged for a closer look

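Myl9 in KO3.34 at cXENp1 was 100.367 FPKM, far from the other 3 lines (45.0 to 49.7 FPKM). On the scale log2(FPKM + 1) its gap to the nearest line was 0.876 of the whole range, above Dixon's critical value at the 95% level. It was the 1 such value in 25 groups of 4 tested, and chance flags about 1 group in 20.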

How the results depend on the processing

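The calls of members between KO and Zfp281-present lines at cXENp3 stood at 2 under each alternative listed beforehand except leaving out a line, where they ranged from 0 to 8 (0 without KO2.6 or KO3.34, 8 without Rescue3.34, and 2 lower without WT3). In the fits added later they were 9 without the Rescue3.34 library of cXENp3 and 7 without that of WT3. Single values without a line ranged from -1.34 to 2.84 for Tagln, -1.87 to 3.02 for Acta2, -1.38 to 1.86 for Cnn1, -0.19 to 2.70 for Tpm1, -1.02 to 0.93 for Tpm2, -1.58 to 3.07 for Myl9 and -2.73 to 3.49 for Actg2. Quantile normalization turned Cnn1 to -0.025 and moved the median of all genes there from 0.01 to -0.10. For the step from cXENp1 to cXENp3 the member count ranged from 0 to 3 on leaving out a line or library, for its difference between KO and Zfp281-present lines from 0 to 7 and for XEN against cXENp1 from 0 to 2. The last was 0 without a filter, 1 with a mean of at least 5 FPKM and 1 after quantile normalization. The cause of these changes was not tested.

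Counts over all genes that changed by over 1.5 times were as follows. With only genes averaging 5 FPKM or more tested, calls were 2369 instead of 3760 for cXENp1 against ESCs, 725 instead of 1233 for cXENp3 against ESCs, 409 instead of 983 for cXENp3 against cXENp1, 13 instead of 64 for KO at cXENp1, 3374 instead of 5421 for XEN against cXENp1 and 236 instead of 551 for KO cXENp3 against XEN. Without a filter they were 460 for cXENp3 against ESCs and 136 for KO at cXENp1. With prefix as a term they were 439 for cXENp1 against ESCs, 0 for cXENp3 against ESCs and 21 instead of 260 for KO in ESCs. Quantile normalization gave 160 for KO in ESCs and 100 for KO at cXENp1 (64 higher and 36 lower, instead of 48 and 16), and split KO cXENp3 against XEN into 251 higher and 252 lower instead of 353 and 198. A pseudocount of 0.1 gave 19 for KO at cXENp1.

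Leaving out a line or library gave 1244 to 3749 calls for cXENp1 against ESCs, 0 to 4138 for cXENp3 against ESCs, 123 to 1134 for cXENp3 against cXENp1, 2098 to 6235 for XEN against ESCs, 1 to 1993 for KO in ESCs, 4 to 638 at cXENp1 and 1057 to 6150 at cXENp3, 5 to 2362 for the KO difference in the passage step, 3542 to 6089 for XEN against cXENp1 and 87 to 881 for KO cXENp3 against XEN. The replicate block on line changed no member's call: calls over all genes were 3383, 860 and 827 without the block in the 3 stage comparisons, and 281, 65, 5538 and 1583 with it in the KO comparisons. Precision of values below 1 FPKM cannot be stated without read counts.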
